A study of Mus musculus with 9 samples.

Results

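The enzymes that write, copy and remove DNA methylation are described here in E14 cells, a line of pluripotent mouse embryonic stem (ES) cells, after 3 h without threonine (Thr) or cysteine (Cys). The 9 genes were chosen by symbol: Dnmt1, Dnmt3a, Dnmt3b, Dnmt3l, Uhrf1, Tet1, Tet2, Tet3 and Tdg, of 20189 genes in the count table. Poly(A) RNA was sequenced from 3 Thr-starved, 3 Cys-starved and 3 unstarved samples of wild-type cells, and the unstarved cells received medium with all amino acids (AAs) for the same time. All groups were grown with serum and leukemia inhibitory factor, carried no engineered allele, and came from a single cell line. Nothing in the labels says that the samples of a group came from separate cultures, so P-values measure the spread between these samples, which may be technical.

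DNMT3A and DNMT3B place methyl groups on unmethylated CpG sites, and DNMT3L, which has no catalytic activity of its own, stimulates both. UHRF1 binds hemimethylated CpGs behind the replication fork and recruits DNMT1, which copies the mark to the new strand. TET1, TET2 and TET3 oxidize 5-methylcytosine in steps, and TDG excises the most oxidized forms so that base excision repair can restore cytosine. The methyl group comes from S-adenosylmethionine (SAM), and mouse ES cells are known to draw on Thr catabolism for SAM synthesis, whereas the TET enzymes need 2-oxoglutarate, iron and oxygen.

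Total counts ranged from 48763102 to 74962733 in the Thr-starved, from 57700492 to 62657358 in the Cys-starved and from 54294288 to 61459894 in the unstarved libraries, and each of the 9 genes had at least 455 reads in every library. Levels are given as CPM (each gene's reads relative to the total of its library) after TMM scaling of library sizes. Differences were tested by the quasi-likelihood method of edgeR over the 20143 genes with at least 1 count. A gene was called where its P, adjusted by Benjamini-Hochberg, did not exceed 0.05. The 10 ES cell markers summed to between 4101 and 4423 CPM in all libraries and the 13 measured markers of other cell types to between 39.7 and 46.0 CPM. None of the ES markers was at 0 in any library, and of the other markers Gsc was at 0 in 1 library. In bulk RNA, fewer cells in a given state and less RNA per cell cannot be told apart.

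Sequence before annotated starts is shown for the de novo methyltransferase genes, which moved apart from each other under Thr starvation, and for the maintenance pair. RefSeq on GRCm38.p6 lists 16 starts for the 9 genes, and all 9 genes matched. The 250 bases before each start were read on the coding strand. CpG sites are in capitals in the first 3 sequences. The Dnmt3a window, chr12:3891494-3891743 on the plus strand, precedes the third and innermost of 3 starts. The Dnmt3b window is chr2:153649199-153649448 on the plus strand, and that of Dnmt3l is chr10:78042037-78042286 on the plus strand, before the first of 3 starts.
Dnmt3a: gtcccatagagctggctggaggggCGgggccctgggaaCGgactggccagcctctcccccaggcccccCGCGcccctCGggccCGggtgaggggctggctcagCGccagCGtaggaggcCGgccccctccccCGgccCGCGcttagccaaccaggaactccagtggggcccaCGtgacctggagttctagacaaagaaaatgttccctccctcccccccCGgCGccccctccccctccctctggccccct
Dnmt3b: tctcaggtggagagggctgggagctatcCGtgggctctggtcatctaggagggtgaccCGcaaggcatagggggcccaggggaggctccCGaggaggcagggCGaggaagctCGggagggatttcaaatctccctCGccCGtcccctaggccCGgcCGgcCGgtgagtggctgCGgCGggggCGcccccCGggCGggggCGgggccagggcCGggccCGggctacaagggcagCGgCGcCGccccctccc
Dnmt3l: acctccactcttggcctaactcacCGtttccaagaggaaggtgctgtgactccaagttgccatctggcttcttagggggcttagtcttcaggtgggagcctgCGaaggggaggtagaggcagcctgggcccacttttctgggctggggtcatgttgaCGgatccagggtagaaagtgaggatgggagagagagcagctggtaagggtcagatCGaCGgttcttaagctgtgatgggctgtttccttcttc
The Dnmt3a window held 15 CpGs and that of Dnmt3b 21, against 5 before Dnmt3l. The median over all 32851 mouse promoter windows of this length was 6 CpGs, with an upper quartile of 16. The other Dnmt3l windows held 4 and 3 CpGs, and the outer Dnmt3a windows 38 and 40. The window of Tet2 was the richest in CpGs of the 16, with 51, followed by the outer Dnmt3a starts.

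The windows of Dnmt1 and Uhrf1 were searched for words of the E2F family, factors that drive S phase genes. The words were TTTCCCGC, TTTCGCGC, TTTGCCGC and TTTGGCGC on both strands, and a match is in capitals below. The Dnmt1 window is chr9:20952624-20952873 on the minus strand, before the third and innermost of 3 starts. The Uhrf1 window is chr17:56304063-56304312 on the plus strand, before the second of 2 starts. Both windows lie inside the annotated gene, so they can hold exon and coding sequence of transcripts from outer starts. The offsets below count from these inner starts.
Dnmt1: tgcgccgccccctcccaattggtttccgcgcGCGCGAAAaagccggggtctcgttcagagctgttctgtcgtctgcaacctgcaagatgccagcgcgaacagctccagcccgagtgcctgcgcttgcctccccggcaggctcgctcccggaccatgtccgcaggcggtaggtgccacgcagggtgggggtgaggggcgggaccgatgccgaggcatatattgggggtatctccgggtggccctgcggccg
Uhrf1: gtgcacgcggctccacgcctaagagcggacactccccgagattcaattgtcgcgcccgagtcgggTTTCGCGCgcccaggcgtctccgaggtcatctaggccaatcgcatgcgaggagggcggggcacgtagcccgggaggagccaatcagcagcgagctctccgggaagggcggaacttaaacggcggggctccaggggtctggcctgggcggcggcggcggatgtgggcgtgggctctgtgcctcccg
Both hold TTTCGCGC, in Dnmt1 on the opposite strand, at offset -219 from the start in Dnmt1 and -185 in Uhrf1. These were the 2 of 16 windows with an E2F word, and 1.86% of all windows held one. The windows of the outer starts of Dnmt1 and Uhrf1, not printed, held none. TTTCGCGC itself contains CpGs, and the printed windows held 26 CpGs in Dnmt1 and 30 in Uhrf1, against a median of 6 over all windows. The word TGATGNAA, as bound by ATF4 with its partners, was in 0 of the 16 windows and in 3.45% of all windows. A match is a run of letters and not evidence of binding, and the counts do not say which start was used.

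**Figure D1:**
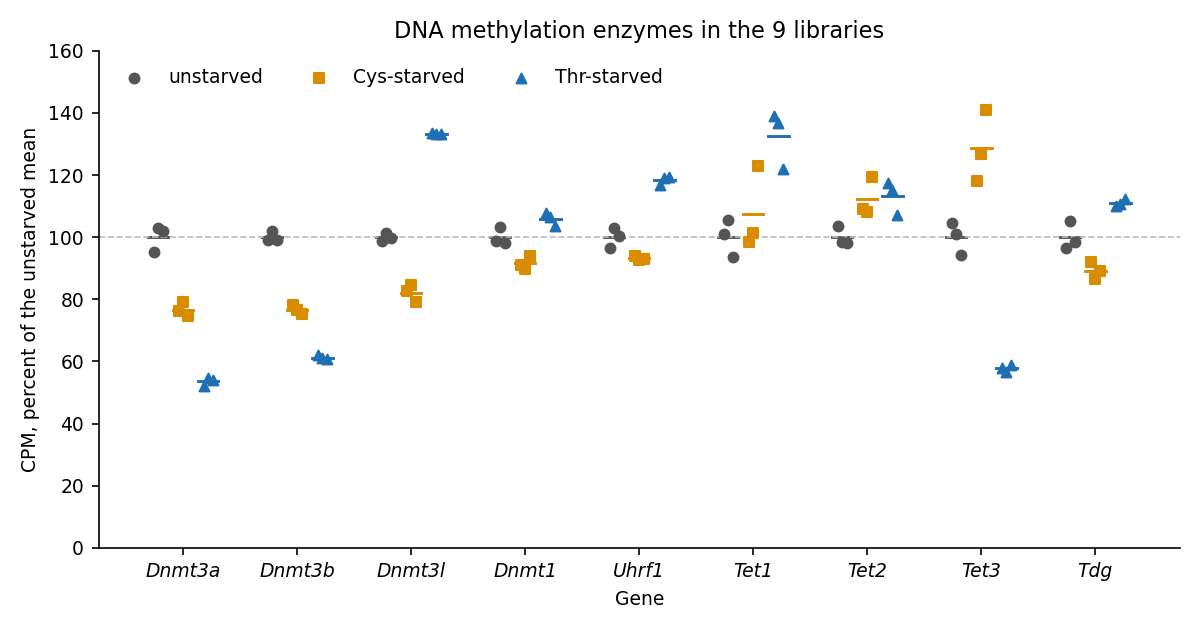
CPM of each gene in each of the 9 libraries, as a percent of the mean of the 3 unstarved libraries, with a bar at each group mean. Dnmt3a, Dnmt3b and Tet3 were lowest in the 3 Thr-starved libraries and Dnmt3l was highest there, while the 3 groups of Tet2 lay close together.

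The de novo pair fell under both starvations. Dnmt3a (ENSMUSG00000020661, chr12:3806007-3914443, GRCm38) had 122, 132 and 130.2 CPM in the unstarved, 97.5, 101 and 95.4 CPM in the Cys-starved and 66.7, 69.9 and 69.0 CPM in the Thr-starved libraries. The 3 groups did not overlap. Thr starvation lowered its level by a log2 fold change of -0.90 ± 0.033 (SE), a fold of 0.536 (adjusted P = 2.1e-16), and Cys starvation by -0.38 ± 0.032 (adjusted P = 3.3e-09). Between the starvations the log2 difference, Thr minus Cys, was -0.52 (95% interval -0.58 to -0.45).

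Dnmt3b (ENSMUSG00000027478, chr2:153649450-153687730) followed the same order, with 209.6, 216 and 210.1 CPM unstarved, 165, 162 and 159 CPM Cys-starved and 131, 129 and 129 CPM Thr-starved. Its groups were also separate. Thr starvation moved it by -0.71 ± 0.025 on the log2 scale (adjusted P = 8.2e-17) and Cys starvation by -0.38 ± 0.024 (adjusted P = 3.7e-11). With Cys, the 2 de novo enzymes thus fell by nearly the same share, 23.3% for Dnmt3a and 23.4% for Dnmt3b. With Thr, Dnmt3a fell by 46.4% and Dnmt3b fell by 38.8%. The Thr minus Cys difference of Dnmt3b was -0.32 (-0.37 to -0.27), and it was -0.16 after removal of each library's trends with GC content and transcript length.

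Dnmt3l (ENSMUSG00000000730, chr10:78041947-78063622), which encodes the stimulating partner of both, did not follow them. It had 286, 294 and 289 CPM unstarved, 239.8, 245 and 229 CPM Cys-starved and 387, 386 and 386 CPM Thr-starved. The Thr-starved libraries were above all others and the Cys-starved below all others. It rose with Thr starvation (log2 0.42 ± 0.024, adjusted P = 6.6e-13) and fell with Cys starvation (-0.28 ± 0.024, adjusted P = 3.9e-09). The Thr minus Cys difference of 0.70 (0.65 to 0.75) was the largest increase among the 9 genes. In 67 bases its exons overlap those of Aire on the opposite strand, which had means of 6.84, 4.97 and 3.42 CPM in the unstarved, Cys-starved and Thr-starved groups.

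These moves changed the make-up of the de novo group within each library. The ratio of Dnmt3l to Dnmt3a counts, which needs no library scaling, was 2.27 ± 0.073 (SD, n = 3) in unstarved, 2.43 ± 0.031 in Cys-starved and 5.64 ± 0.15 in Thr-starved samples. Per length of merged exons the same ratio was 12.6, 13.5 and 31.4. The Thr-starved ratio was 2.49 times the unstarved one, with no overlap between groups (exact two-sided permutation test, P = 0.1, the smallest that 3 against 3 can give; adjusted P = 0.13 over 21 ratio tests). The ratio of Dnmt3b to Dnmt3a counts was 1.66 ± 0.058 unstarved, 1.66 ± 0.048 Cys-starved and 1.89 ± 0.067 Thr-starved. The unstarved and Cys-starved ratios overlapped, with a log2 difference of -0.00 ± 0.038 (exact permutation P = 1), and the Thr-starved ratios lay above both (exact permutation P = 0.1).

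Counts per gene do not separate isoforms. GENCODE M21 lists 18 transcripts of Dnmt3a and 12 of Dnmt3b, and the shorter Dnmt3a form that ES cells are known to favor starts at the internal promoter printed above. None of Dnmt3a, Dnmt3b and Dnmt3l had a stretch of at least 86 bases with 95% identity to a transcript of another gene.

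**Figure D2:**
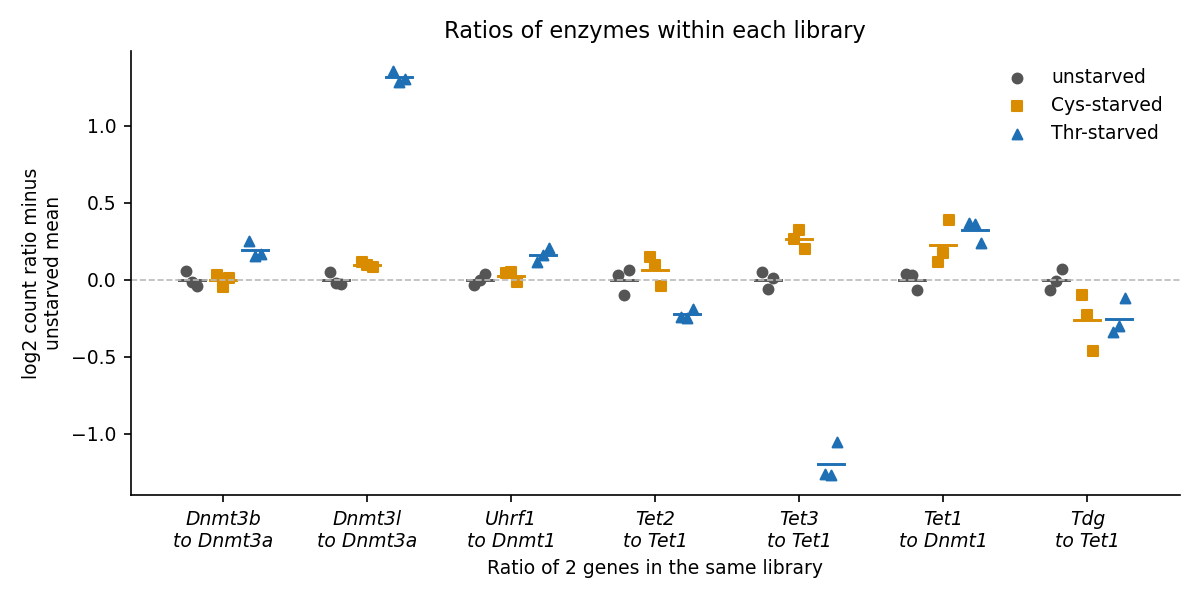
Log2 ratio of the counts of 2 genes in the same library, minus the mean of the 3 unstarved libraries, with a bar at each group mean. The Dnmt3l to Dnmt3a ratio of the Thr-starved libraries stands 1.31 above the unstarved mean and the Tet3 to Tet1 ratio -1.19 from it, and the remaining ratios lie within 0.5 of it.

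The maintenance genes moved less. Dnmt1 (ENSMUSG00000004099, chr9:20907209-20959888) had 394, 412 and 392 CPM unstarved, 363, 358 and 375 CPM Cys-starved and 431, 425 and 413 CPM Thr-starved. The lowest Thr-starved library was 413 CPM against a highest unstarved of 412 CPM, so the groups were separated by a narrow margin. On the log2 scale it rose by 0.08 ± 0.024 under Thr starvation (adjusted P = 0.0054) and moved by -0.13 ± 0.024 under Cys starvation (adjusted P = 2.3e-04). Removal of the GC and length trends gave 0.24 with Thr in place of 0.08.

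Uhrf1 (ENSMUSG00000001228, chr17:56303321-56323486) had 374, 398 and 389 CPM unstarved, 363, 359 and 360.1 CPM Cys-starved and 452, 460.1 and 463 CPM Thr-starved. The Thr-starved libraries were clearly the highest and the Cys-starved just below the unstarved. It rose by 0.24 ± 0.023 with Thr (log2, adjusted P = 2.8e-09) and changed by -0.10 ± 0.023 with Cys (adjusted P = 0.0011). Without the GC and length trends the Thr value was 0.39. A transcript of Gm5648 is near-identical to 44.3% of the longest Uhrf1 transcript, so part of the Uhrf1 reads may be split. Gm5648 had 27.1, 26.6 and 34.0 CPM in the unstarved, Cys-starved and Thr-starved groups, and Uhrf1 gave 93.1 to 93.4% of the reads of both.

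Thr minus Cys, the log2 difference was 0.21 (0.16 to 0.26) for Dnmt1 and 0.35 (0.30 to 0.39) for Uhrf1. Without the GC and length trends these differences were 0.41 and 0.52. Uhrf1 and Dnmt1 counts were close to parity in every group, with a ratio of 0.969 ± 0.022 unstarved, 0.987 ± 0.023 Cys-starved and 1.08 ± 0.035 Thr-starved (exact permutation P = 0.1 for Thr-starved against unstarved). Per length of merged exons Uhrf1 stood at 1.68, 1.71 and 1.88 times Dnmt1.

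S phase genes, many of them known E2F targets, were read beside the maintenance pair. Of the 20 on the list, 16 were higher and 1 lower with Thr starvation, beside 31.1% and 31.9% of all genes. Their median log2 fold change was 0.44 against -0.02 over all genes. The change was 0.08 for Dnmt1 and 0.24 for Uhrf1. The ribonucleotide reductase subunit Rrm2 rose by 0.61 and the cyclin gene Ccne1 fell by 0.53 on the log2 scale. With Cys starvation 3 were higher and 9 lower, beside 17.5% and 18.8% of all genes, with a median of -0.05. Cdc6 (0.20), which loads the replicative helicase, was among those higher. The replication factor Gins1 (-0.53) and Rrm1 (-0.29) led the declines. Thr against Cys, 17 were higher and 1, Ccne1, was lower, beside 30.4% and 31.6% of all genes. The summed S phase level was 4823 to 4944 CPM unstarved, 4624 to 4699 CPM Cys-starved and 6066 to 6151 CPM Thr-starved. Dnmt3l and Tdg also rose with Thr and fell with Cys. The part of the S phase genes in the results for Dnmt1, Uhrf1, Dnmt3l and Tdg was not tested.

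The TET genes did not move as a family. Tet1 (ENSMUSG00000047146, chr10:62804570-62908996) had 459.9, 479 and 425 CPM unstarved, 447, 460.4 and 559 CPM Cys-starved and 632, 621 and 555 CPM Thr-starved. Cys-starved replicate 3 stood apart from its group and overlapped the Thr-starved range. Tet1 rose with Thr starvation (log2 0.41 ± 0.058, adjusted P = 2.2e-06). With Cys its value was 0.10 ± 0.058 (adjusted P = 0.18), which became -0.00 without Cys-starved replicate 3, 0.06 without unstarved replicate 3, and 0.16 without Cys-starved replicate 1, where it was called (adjusted P = 0.038). The 95% interval for Cys was -0.02 to 0.23. The tested Thr minus Cys difference was 0.30 (0.18 to 0.42), and it was 0.13 after removal of the GC and length trends.

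Tet2 (ENSMUSG00000040943, chr3:133463679-133545139) had 158, 150.2 and 149 CPM unstarved, 166, 165 and 182 CPM Cys-starved and 179, 176 and 164 CPM Thr-starved. Both starved groups lay above the unstarved one and overlapped each other. It rose by 0.18 ± 0.037 with Thr (log2, adjusted P = 1.9e-04) and by 0.16 ± 0.037 with Cys (adjusted P = 0.0010). The difference between the starvations was 0.01, with an interval of -0.06 to 0.09 (adjusted P = 0.76).

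The Tet1 and Tet2 values changed with removal of the GC and length trends, as did the values of Dnmt1, Uhrf1 and Dnmt3b given above. Both trends were removed together, and the source of the shifts was not tested. The longest transcripts of Tet1 and Tet2 run to 14369 and 9179 bases with 43.7% and 45.4% GC, whereas the other 7 genes had between 47.9% and 54.0% GC. With each library's trends in GC content and length removed, the Thr effect fell to 0.13 for Tet1 (adjusted P = 3.6e-04) and to 0.04 for Tet2, which was then not called (adjusted P = 0.18). For Tet1 with Cys the value was then 0.00. The Cys effect of Tet2 became 0.11, and Tet2 was then lower in Thr-starved than in Cys-starved cells, at -0.06 (adjusted P = 0.043).

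Tet3 (ENSMUSG00000034832, chr6:83362373-83459084) was the scarcest of the 9 and had the widest swing. It had 17.6, 17.0 and 15.8 CPM unstarved, 19.9, 21.3 and 23.7 CPM Cys-starved and 9.75, 9.54 and 9.90 CPM Thr-starved, and no groups overlapped. It fell with Thr starvation (log2 -0.79 ± 0.067, adjusted P = 5.1e-10) and rose with Cys starvation (0.36 ± 0.061, adjusted P = 5.2e-05). The Thr minus Cys difference of -1.15 (-1.28 to -1.01) was the only one of the 27 member differences beyond 1 on the log2 scale.

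Within libraries, the ratio of Tet3 to Tet1 counts was 0.0370 ± 0.0014 unstarved, 0.0444 ± 0.0020 Cys-starved and 0.0162 ± 0.0014 Thr-starved (exact permutation P = 0.1 for each pair of groups, adjusted P = 0.13). The ratio of Tet2 to Tet1 counts was 0.336 ± 0.020, 0.352 ± 0.023 and 0.287 ± 0.0065 in the same order, and the unstarved and Cys-starved values overlapped (exact permutation P = 0.4). The ratio of Tet1 to Dnmt1 counts was 1.14 ± 0.046 unstarved, 1.33 ± 0.14 Cys-starved and 1.42 ± 0.070 Thr-starved, but per length, where Tet1 stood below Dnmt1, the ratio was 0.543, 0.637 and 0.679. The higher Tet1 to Dnmt1 ratio with Thr did not hold without the GC and length trends. The log2 change with Thr was then 0.13 for Tet1 and 0.24 for Dnmt1.

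Tdg (ENSMUSG00000034674, chr10:82629828-82650799), the glycosylase that finishes TET-driven demethylation, had 103, 112 and 105 CPM unstarved, 97.8, 92.1 and 94.9 CPM Cys-starved and 117, 118 and 119.6 CPM Thr-starved, with no overlap. It rose by 0.15 ± 0.032 with Thr (log2, adjusted P = 2.3e-04) and fell by 0.17 with Cys (SE 0.032, adjusted P = 2.3e-04), a Thr minus Cys difference of 0.32 (0.25 to 0.38). Its reads may be shared. Near-identical sequence in 5 other genes covers 95.2% of its longest transcript, and 4 of them, Tdg-ps, Gm9855, Gm5597 and AC122846.1, were in the count table. The other, Glt8d2, is not a copy but overlaps the exons of Tdg by 367 bases on the opposite strand. Summed with these, the Tdg family had 276 ± 12.4 CPM unstarved, 247 ± 7.04 CPM Cys-starved and 305 ± 1.87 CPM Thr-starved. Tdg itself gave 38.5 to 38.7% of the sum in each group. The log2 change of the summed mean against unstarved was 0.15 with Thr and -0.16 with Cys, close to that of Tdg alone. The level of Tdg is therefore uncertain, while its differences between groups were close to those of the sum. The ratio of Tdg to Tet1 counts was 0.234 ± 0.011 unstarved, 0.196 ± 0.025 Cys-starved and 0.197 ± 0.016 Thr-starved. Its decline with Thr did not hold without the GC and length trends, where Tet1 rose by 0.13 on the log2 scale. Tdg rose by 0.14 to 0.16 with Thr under every alternative that keeps all libraries.

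**Figure D3:**
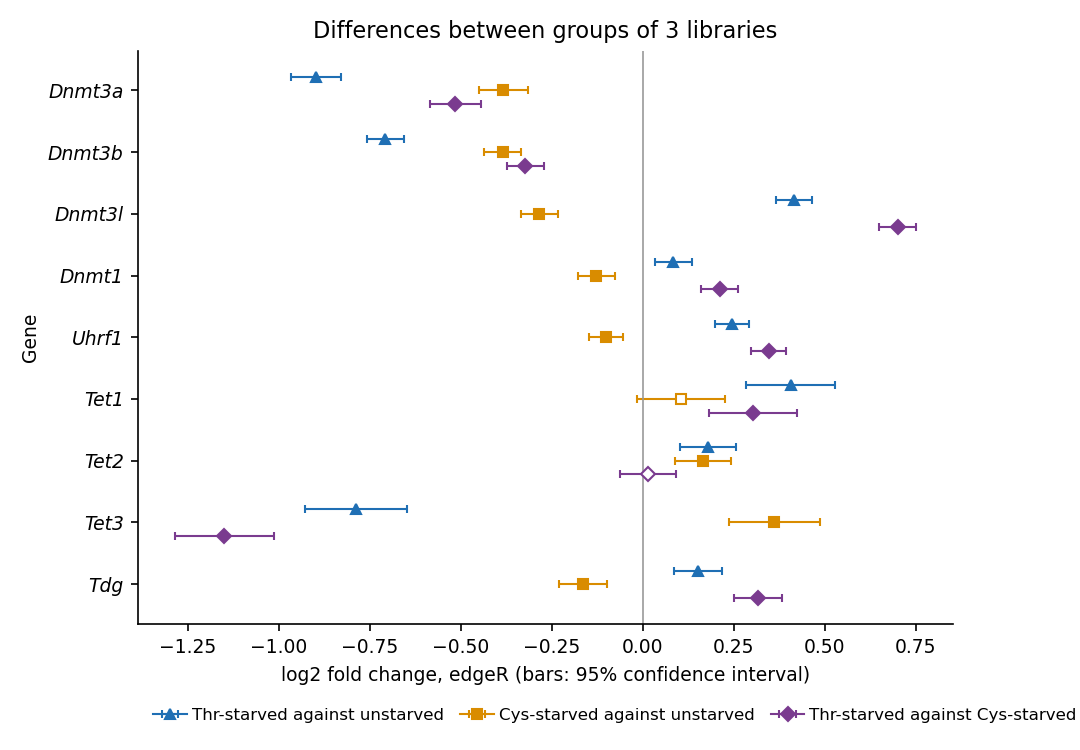
Log2 fold change of each gene in the 3 comparisons of 3 against 3 libraries, with 95% confidence intervals from edgeR, filled where called and open where not called. The open symbols are Tet1 for Cys-starved against unstarved (0.10) and Tet2 for Thr-starved against Cys-starved (0.01), and Tet3 has the most distant value (-1.15).

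With Thr starvation, all 9 genes were called, 6 higher and 3 lower, and none overlapped between the groups. Called genes made up 63.0% of all genes, 31.1% higher and 31.9% lower, and 80.6% of the 11410 genes that averaged 5 CPM or more, so that calls were common at this depth. Groups of 66.5% of all genes did not overlap. With Cys starvation 8 were called, 2 higher and 6 lower, beside 36.3% of all genes (17.5% higher, 18.8% lower) and 55.0% of those with at least 5 CPM, and 8 did not overlap, beside 46.4% of all genes. Scaling with the deposited size factors changed the share of higher calls among all genes with Cys from 48.2% to 36.8% and left the counts for the 9 genes at 2 and 6. Thr against Cys, 5 were higher and 3 lower, beside 62.0% of all genes called (30.4% higher, 31.6% lower), and 7 did not overlap, beside 65.8% of all genes. The median absolute log2 fold change of the 9 genes was 0.41 with Thr and 0.17 with Cys, beside 0.39 and 0.17 over all genes. The comparisons with unstarved cells share the same 3 unstarved libraries.

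Levels of different genes were compared per kilobase of merged exons (RPKM). In unstarved cells Dnmt3l was highest at 96.9 ± 1.31 RPKM (SD, n = 3), followed by Uhrf1 at 90.9 ± 2.93 RPKM and Dnmt1 at 54.2 ± 1.51 RPKM. Dnmt3b had 41.5 ± 0.67 RPKM, Tet1 29.4 ± 1.78 RPKM and Tdg 19.8 ± 0.88 RPKM. Tet2 had 9.04 ± 0.28 RPKM, Dnmt3a 7.68 ± 0.33 RPKM and Tet3 1.01 ± 0.054 RPKM. Neighbors in this order did not overlap.

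Under Cys starvation Uhrf1 (84.7 ± 0.49 RPKM) stood above Dnmt3l (79.6 ± 2.71 RPKM), and Dnmt3b (31.8 ± 0.59 RPKM) and Tet1 (31.6 ± 3.94 RPKM) overlapped. Under Thr starvation Dnmt3l reached 129 ± 0.21 RPKM, and Tet1 at 39.0 ± 2.69 RPKM stood above Dnmt3b at 25.4 ± 0.29 RPKM, the reverse of the order in unstarved cells. Dnmt3a was down to 4.12 ± 0.10 RPKM and Tet3 to 0.583 ± 0.011 RPKM. The order rests on the lengths used: with the longest transcript, Dnmt3l stood above Uhrf1 under Cys starvation, and Tdg above Dnmt3b under Thr starvation.

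**Figure D4:**
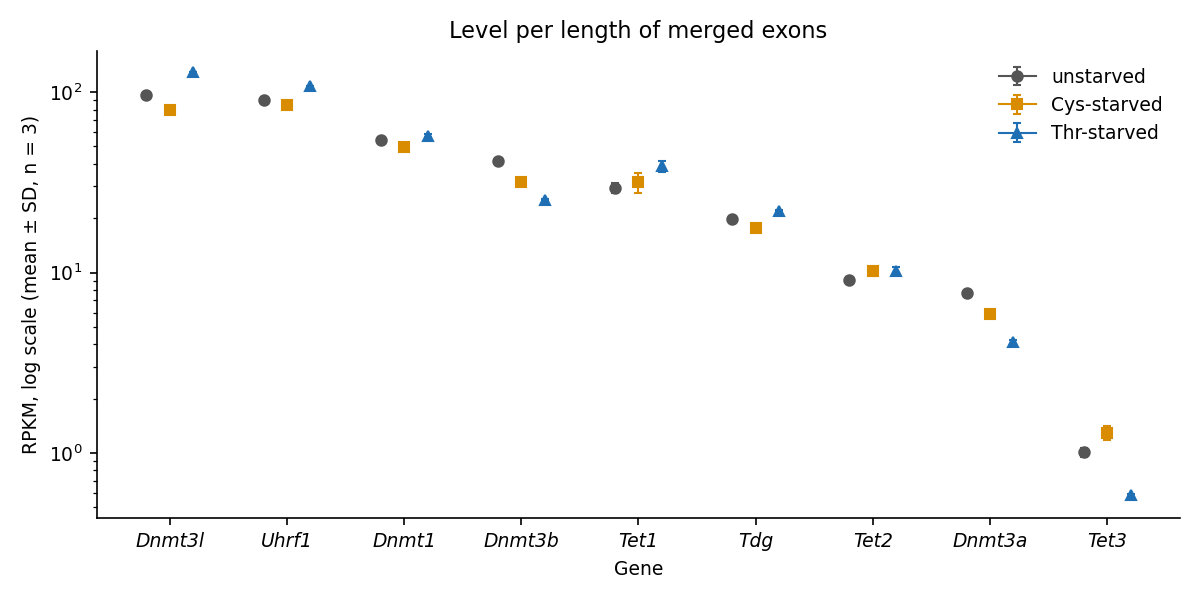
Level of each gene per kilobase of merged exons (RPKM, log axis, mean ± SD of 3 libraries), ordered by the unstarved level. Levels run from 129 RPKM for Dnmt3l in Thr-starved cells to 0.583 RPKM for Tet3 in the same cells.

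Of 20 genes known to steer these enzymes, 9 were higher and 8 lower with Thr starvation, with a median log2 fold change of -0.00. Beside this, 31.1% of all genes were higher and 31.9% lower, and 80.6% of those that averaged 5 CPM or more were called. Nsd2, whose H3K36 methylation is a docking mark for the de novo enzymes, went from 75.5 to 76.6 CPM in the unstarved to 136 to 142 CPM in the Thr-starved libraries (log2 0.88 ± 0.028, adjusted P = 1.6e-17). Zfp445, a zinc finger protein that protects imprints, rose by 0.69. Ehmt2, the H3K9 methyltransferase G9a, fell from 178 to 182 CPM to 79.8 to 84.9 CPM (log2 -1.12 ± 0.028, adjusted P = 1.7e-19). With Cys starvation 1 of 20 was higher, Ogt, a TET-binding glycosyltransferase (0.22 ± 0.036, adjusted P = 3.5e-05), and 9 were lower, beside 55.0% called among genes of that level.

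The largest declines with Cys were Cdca7, an activator of the remodeler HELLS (-0.56 ± 0.025, adjusted P = 5.9e-14), and Dppa3, which keeps UHRF1 from chromatin (-0.39 ± 0.041, adjusted P = 1.2e-07). Thr against Cys, 10 regulators were higher and 8 lower, beside 30.4% and 31.6% of all genes. Nsd2 (0.86) and Zfp445 (0.74) again led the increases, and Ehmt2 (-0.80) and Prdm14 (-0.73), a repressor of Dnmt3b in ES cells, the decreases. Prdm14 had 14.4 to 16.2 CPM unstarved and 9.06 to 10.1 CPM Thr-starved.

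Of 12 genes for the supply and use of the cofactors, 8 were lower and 1 was higher with Thr starvation (median log2 fold change -0.21). With Cys starvation 8 were lower and 2 higher (median -0.12). Over all genes, 31.9% were lower and 31.1% higher with Thr, and 18.8% lower and 17.5% higher with Cys. Of genes that averaged 5 CPM or more, 80.6% were called with Thr and 55.0% with Cys. The median absolute log2 fold change of the 12 was 0.21 with Thr, beside 0.39 over all genes. Mat2a, which makes SAM, had 489, 466 and 488 CPM unstarved, 421, 430.5 and 411 CPM Cys-starved and 187, 194 and 177 CPM Thr-starved. On the log2 scale Thr starvation moved it by -1.37 ± 0.030 (adjusted P = 2.0e-20) and Cys starvation by -0.19 ± 0.029 (adjusted P = 1.4e-05). Mat2a overlaps Particl on the opposite strand. Ogdh, which consumes 2-oxoglutarate in the citric acid cycle, fell by 0.78 on the log2 scale with Thr, and Idh3g, a subunit that makes it, rose by 0.11. With Cys, Idh1 (-0.23), which makes 2-oxoglutarate in the cytosol, was among those that fell, and D2hgdh (0.20) and Mtr (0.16) were the 2 that rose. Thr against Cys, 7 were lower and 3 higher, beside 31.6% and 30.4% of all genes.

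Base excision repair genes comprise glycosylases that work in parallel to TDG and enzymes that act after it. Of 12, 5 were higher and 4 lower with Thr starvation, beside 31.1% and 31.9% of all genes. With Cys starvation 4 were higher and 4 lower, beside 17.5% and 18.8% of all genes. Of genes that averaged 5 CPM or more, 80.6% were called with Thr and 55.0% with Cys. With Thr, the glycosylase Neil1 (0.58) and the polymerase Polb (0.44) rose, and the glycosylases Nthl1 (-0.65) and Neil3 (-0.45) fell. With Cys, Mbd4 (0.34), which excises mismatched thymine at CpGs, and Neil1 (0.29) rose, and Nthl1 (-0.38) and the AP endonuclease Apex1 (-0.37) fell. Of 7 readers of methylated CpGs, 3 were higher and 2 lower with Thr and 4 higher and 1 lower with Cys. The same shares of all genes stand beside these counts. The lower calls with Thr went to 0 with GC and length trends removed and to 1 without Thr-starved replicate 1, Thr-starved replicate 3 or unstarved replicate 3. With Cys, 2 were higher with the deposited size factors, without Cys-starved replicate 2 or without unstarved replicate 2, and 0 were lower without Cys-starved replicate 1 or 2 or unstarved replicate 2 or 3. Zbtb33, which encodes the reader Kaiso, rose by 0.72 on the log2 scale with Thr (adjusted P = 3.5e-12).

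The list of germline genes held methylated in ES cells was not silent throughout, and 9 of 14 averaged 1 CPM or more. Methylation of their promoters was not measured here. With Thr starvation 6 were higher and 2 lower, beside 31.1% and 31.9% of all genes, with a median log2 fold change of 0.27. Mael, of the piRNA pathway, had 0.816 to 1.13 CPM unstarved and 1.25 to 1.84 CPM Thr-starved (0.59 ± 0.21, adjusted P = 0.020), and Sycp1, of the synaptonemal complex, 1.84 to 2.30 and 2.75 to 3.88 CPM (0.56 ± 0.14, adjusted P = 0.0017). Tex19.1 (-0.67 ± 0.088, adjusted P = 6.3e-07) and the helicase gene Ddx4 (-0.21 ± 0.054, adjusted P = 0.0020) fell. This split did not hold under the removal of GC and length trends, which left 1 higher and 3 lower. With Cys starvation 0 were higher and 2, Tex19.1 (-0.44) and Ddx4 (-0.16), were lower, beside 17.5% and 18.8% of all genes. The lower count with Cys was 4 with the deposited size factors and 1 without Cys-starved replicate 3 or unstarved replicate 2, and without Cys-starved replicate 2 it was 3, with 1 higher.

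**Figure D5:**
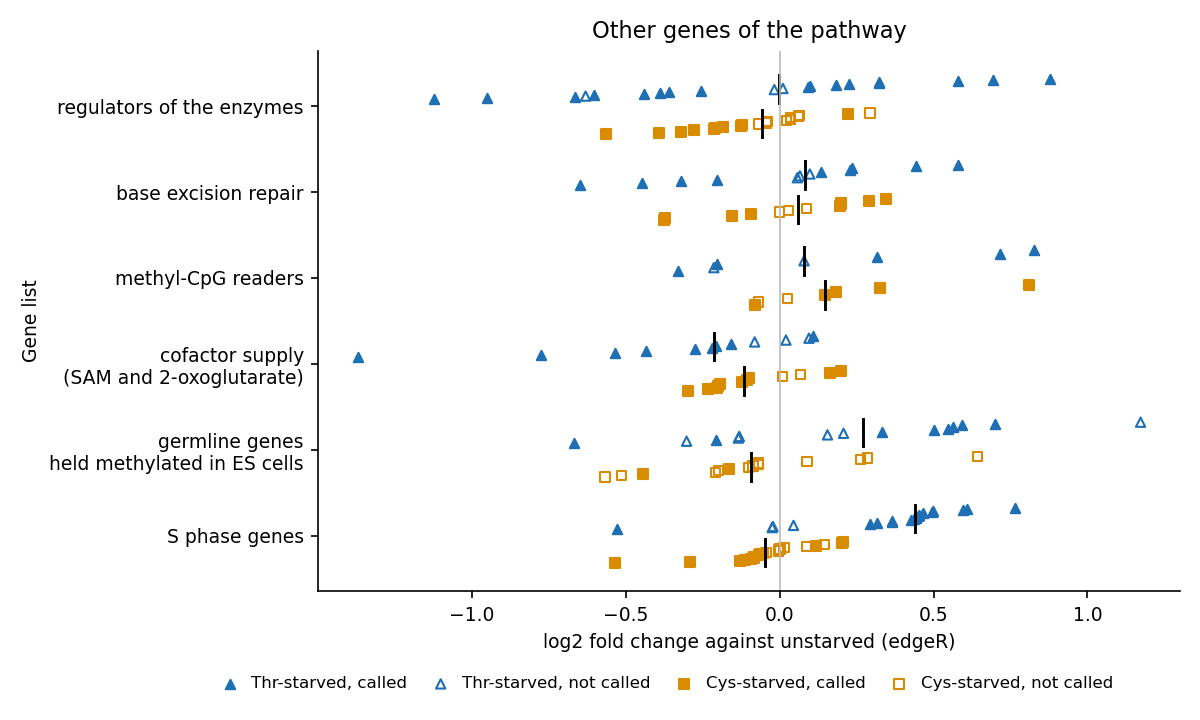
Log2 fold change against unstarved cells of each gene on 6 lists related to the enzymes, for Thr and Cys starvation, filled where called and open where not called, with a black bar at each list's median. S phase genes with Thr starvation sit mostly right of 0 (median 0.44) and the cofactor genes left of it (median -0.21).

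Profiles most like those of each enzyme were found by the root mean square (RMS) difference of centered log2(CPM + 0.5) over the 9 libraries, among 11408 genes. For Dnmt3a they were Msto1, Ptgfrn and Acsl3 (RMS 0.039 to 0.048) and for Dnmt3b Pfkl, Srrt and Pprc1 (0.021 to 0.030). Pfkl, a phosphofructokinase of glycolysis, changed by -0.70 with Thr and -0.37 with Cys on the log2 scale, beside -0.71 and -0.38 for Dnmt3b. For Dnmt3l they were Pcnp, Amd2 and Rala (0.022 to 0.024), for Dnmt1 Hnrnpu, Rxrb and Rpl13-ps3 (0.021 to 0.025), and for Uhrf1 Hmgn1, Rbm14 and Ptpa (0.019 to 0.020). For Tet1 they were Alms1, Phip and Alms1-ps2 (0.031 to 0.047), and for Tet2 the nearest was C2cd3 (0.030). Tet3, the gene with the fewest reads, had more distant neighbors in Zbtb40, Pdp1 and Tada3 (0.070 to 0.076). For Tdg they were Skp2, an F-box protein that drives entry to S phase, Ndufs1 and Med14 (0.024 to 0.028).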

How the data were processed

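The authors mapped paired-end reads of 43 bases to GRCm38 with STAR 2.7.4a used HTSeq to count reads over each gene, and deposited these raw counts. The kit keeps strand, but the strand setting of the counting is not given in the sources used here. The deposited signal table holds the same counts divided by DESeq2 size factors, per the labels and the study's methods; it gave the size factors of an alternative. Of 28226 counts from 1 to 20, 67.8% were even, so halved counts were an alternative added after seeing the data, as was the removal of GC content and length trends (loess, span 0.3).

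Counts were tested with edgeR 4.0.16 (R 4.3.3): TMM, 9 libraries in 1 fit, the quasi-likelihood test. The members and lists were chosen with earlier results of these data known. Named genes are the members, for each list and comparison genes among the 2 largest called increases and decreases averaging 1 CPM or more, and the 3 most alike profiles, of which some are not reported here. Lengths came from GENCODE M21, near-identical transcripts from BLAST 2.17.0. Scripts were tested on simulated data. DESeq2 1.42.0 was an alternative. Labels name replicates without saying that equal numbers were handled together.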

Additional observations from a re-analysis of the deposited data

Results flagged for a closer look

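Dnmt3l, Dnmt1, Uhrf1, Tet3 and Tdg moved one way with Thr and the other way with Cys starvation, and the difference between the starvations was itself tested with edgeR's quasi-likelihood test over all genes. Thr minus Cys, it was 0.6995 on the log2 scale for Dnmt3l (0.42 with Thr, -0.28 with Cys), higher in 3 of 3 Thr-starved libraries than in every Cys-starved one. For Tet3 it was -1.1496 (-0.79 with Thr, 0.36 with Cys), lower in 3 of 3. It was 0.3456 for Uhrf1, 0.3166 for Tdg and 0.2102 for Dnmt1, each higher in 3 of 3. With GC and length trends removed the Dnmt1 value was 0.41. Adjusted P ranged from 9.5e-17 for Dnmt3l to 1.0e-07 for Dnmt1. Both effects share the unstarved libraries, and 62.0% of all genes were called in this comparison.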

How the results depend on the processing

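Of 270 member log2 fold changes recomputed under the alternatives that keep all libraries (DESeq2, RLE, deposited size factors, stricter filters, 2 groups only, replicate block, thinned counts, halved counts, GC and length trends removed), 268 kept their direction and call. The exceptions in direction or call came from the removal of GC and length trends: Tet2 with Thr, 0.04 and no longer called, and Tet2 Thr against Cys, -0.0636. That removal also moved Tet1 with Thr from 0.41 to 0.13, Tet1 Thr against Cys from 0.30 to 0.13, and Dnmt1 Thr against Cys from 0.21 to 0.41. Of 243 values without 1 library, 238 kept both. Tet1 with Cys ranged from -0.0029 (without Cys-starved replicate 3) to 0.16 (without Cys-starved replicate 1, called), and Tet2 Thr against Cys from -0.011 to 0.061, negative without Cys-starved replicate 1 (-0.0061), Cys-starved replicate 2 (-0.011) or Thr-starved replicate 1 (-0.0056). The cause was not tested. With a log2 fold change of 1 or more in size also required, 2668 genes were called with Thr, 296 with Cys and 2303 Thr against Cys, and 0, 0 and 1 (Tet3) of the 9 members. Of 126 ratio differences without 1 library, those between groups that did not overlap kept their direction. Differences near 0 did not all keep it. Among these were Dnmt3b to Dnmt3a with Cys (-0.0016 on the log2 scale) and Tdg to Tet1 Thr against Cys (0.0099). With longest transcript lengths 26 of 27 levels per length moved beyond 1 SD, by 1.08 to 1.84 times in length.

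With the replicate number as a block, 12488, 7063 and 12334 genes and 9, 8 and 8 members were called, which changed no call of a member. Deviations of same-numbered libraries correlated on average by 0.015, -0.062 and -0.14 in the 3 comparisons, so the numbers were not treated as pairs, and 1 of 3, 0 of 3 and 0 of 3 libraries correlated best with their own number. Sampling noise is small at these depths except for genes of few reads. Among these were 5 germline genes with a mean under 1 CPM, Cxxc4 (8 to 31 counts) and Gsc (at most 16 counts).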

Other observations

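Of the 10 ES cell markers, 5 were higher and 5 lower with Thr and 3 higher and 7 lower with Cys starvation. Called genes made up 63.0% of all genes with Thr and 36.3% with Cys. Among genes that averaged 5 CPM or more they made up 80.6% and 55.0%. Utf1, a chromatin factor of ES cells, had 299, 314 and 309.6 CPM unstarved, 277, 282 and 266 CPM Cys-starved and 94.9, 97.1 and 93.2 CPM Thr-starved, and the pluripotency factor Klf4 146, 151 and 147, 155, 155 and 155, and 269, 263 and 269 CPM in the same order. With Thr starvation Utf1 changed by -1.69 ± 0.028 and Klf4 by 0.85 ± 0.023 on the log2 scale (edgeR, adjusted P = 1.3e-22 and 1.2e-18). Of the 13 measured markers of other cell types, 3 were higher and 5 lower with Thr and 3 higher and 2 lower with Cys. The same 63.0% and 36.3% of all genes called stand beside these counts. The neural marker Sox1 led the increases with Thr (0.88, from 7.96 to 8.98 CPM to 14.5 to 16.7 CPM) and Thy1, a fibroblast marker at most 3.49 CPM, led the declines (-1.86). Their part in the results for the methylation enzymes was not tested.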
